A study of Mus musculus with 6 samples.

Results

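Counts were described for 6 genes of the mouse mitochondrial genome in cultured spermatogonia that had been stored frozen in space or on the ground. The genes were mt-Co1, mt-Co2 and mt-Co3, the mitochondrially encoded subunits of cytochrome c oxidase, mt-Cytb, which encodes cytochrome b, and mt-Atp6 and mt-Atp8, which encode membrane subunits of ATP synthase. They were 6 of the 32285 genes in the table and 6 of its 13 mitochondrially encoded genes. The 6 genes were chosen on measured values, namely for lower counts in the Space columns than in the Ground columns, so the difference between the groups is given for them as a description and with no test.

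The cells were germline stem (GS) cells, cultured spermatogonia that keep stem cell activity. They were derived from testes of DBA/2 pups aged 2 to 3 days with the genotype DBA/Tg14(act-EGFP-OsbY01), an EGFP transgene driven by an actin promoter, and both groups carried it. Cells titled Space were frozen for 6 months on the International Space Station, cells titled Ground were frozen for 6 months on Earth, and both were thawed and taken for poly(A) RNA sequencing on the day after thawing, before any passage. Each group had 3 libraries, numbered 1 to 3, which the study calls lines of GS cells. No label ties a library to a line or culture, so the p-values below measure the spread between these libraries, which may be technical. In all 6 libraries the treatment label says the opposite of the title. Groups were taken from the titles, which the table's columns follow, and every direction below would turn if the treatment label were right.

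The total count per library lay between 19015985 and 24110916. All 12 spermatogonia markers passed the filter on low counts, including Ddx4, Dazl, Zbtb16 and Ret, and their summed level lay between 2919 and 3042 CPM, counts taken relative to a library total that was adjusted by TMM in edgeR. Some single markers varied more than the sum. The highest library was 2.81 times the lowest for Etv5, 2.54 for Nanos2 and 1.48 for Gfra1, and at most 1.24 for every other marker. Etv5 and Gfra1 were lowest, and Nanos2 highest, in Ground-3 and Space-1, so the groups overlapped for each of them. Per-library values are given in the order of libraries 1, 2 and 3 of each group. GS cells grow on a fibroblast feeder layer, and the summed level of 15 fibroblast markers was 1131, 1109 and 1086 CPM in Ground, and 934, 1139 and 1040 CPM in Space, so the groups overlapped. Ground-1 and Space-3 were closer to each other than to any library of their own group. Their chi-square per gene, over all genes tested including the mitochondrially encoded ones, was 1.83. It was 23.6 to 87.0 for every pair of libraries within a group.

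Mitochondrial DNA is transcribed as long RNAs from both strands. These are cut, largely at the tRNA genes that lie between the coding genes, and most of the released messages are polyadenylated. The products of the 13 coding genes all enter the respiratory chain or ATP synthase. Cytochrome b is the mitochondrially encoded subunit of complex III, which passes electrons from ubiquinol to cytochrome c. The 3 oxidase subunits form the core of complex IV, which reduces oxygen, and the 2 ATPase subunits belong to the proton-driven membrane sector of complex V. All other subunits of these complexes are encoded in the nucleus. In bulk RNA, fewer cells of a type and less RNA per cell cannot be told apart.

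All 6 genes lie on the plus strand of chrM (GRCm38, the assembly of mm10), and each is a single protein-coding exon in GENCODE M21. In order they are mt-Co1 (ENSMUSG00000064351) at chrM:5328-6872, mt-Co2 (ENSMUSG00000064354) at chrM:7013-7696, mt-Atp8 (ENSMUSG00000064356) at chrM:7766-7969, mt-Atp6 (ENSMUSG00000064357) at chrM:7927-8607, mt-Co3 (ENSMUSG00000064358) at chrM:8607-9390 and mt-Cytb (ENSMUSG00000064370) at chrM:14145-15288. mt-Atp8 and mt-Atp6 share 43 bases, read in different frames, and mt-Atp6 and mt-Co3 share 1. The shared stretch of the ATPase genes, chrM:7927-7969, is shown because a read that lies within it cannot be given to either gene by its sequence.
mt-Atp8 and mt-Atp6: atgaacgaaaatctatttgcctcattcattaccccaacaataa

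Parts of the mitochondrial genome also exist as copies in the nuclear chromosomes. A search of all 141767 transcripts of GENCODE M21 found 11 annotated nuclear pseudogenes with at least 85% identity to a stretch of one of the 6 genes, and 0 of the 11 were rows of the count table. On chromosome 1, between 24611535 and 24616197, 7 pseudogenes lie in the order and nearly the spacing of the mitochondrial genes, copies of mt-Co1, mt-Co2, mt-Atp6 and mt-Co3 followed by copies of mt-Nd3, mt-Nd4l and mt-Nd4. Among them, Gm28661 at chr1:24614885-24615565 was identical to mt-Co2 over 681 bases, Gm10925 at chr1:24613974-24614651 to mt-Atp6 over 678 bases and Gm28437 at chr1:24613189-24613971 to mt-Co3 over 783 bases. The opening 76 bases of these 3 genes, the length of 1 read in the study's methods, are shown because the nuclear copy has the same letters at every position. They lie at chrM:7013-7088, chrM:7927-8002 and chrM:8607-8682, and the copies, on the minus strand, at chr1:24615490-24615565, chr1:24614576-24614651 and chr1:24613896-24613971.
mt-Co2 and Gm28661: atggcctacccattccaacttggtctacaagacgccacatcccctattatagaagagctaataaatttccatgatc
mt-Atp6 and Gm10925: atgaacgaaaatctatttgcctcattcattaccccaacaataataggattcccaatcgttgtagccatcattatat
mt-Co3 and Gm28437: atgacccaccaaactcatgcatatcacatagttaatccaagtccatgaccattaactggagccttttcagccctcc

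The copies of mt-Co1 and mt-Cytb were less alike. Gm13340 at chr2:22588103-22589647 covered all 1545 bases of mt-Co1 with 37 mismatches, and Gm29216 at chr1:24615706-24616197 covered 483 bases with 1 mismatch. Gm11410 at chr4:80003989-80005131 covered 1142 bases of mt-Cytb with 81 mismatches. The 3 pairs of lines below show 76 bases of each alignment with the differing letters in capitals. They are taken from chrM:5328-5403 and chr2:22589572-22589647, from chrM:6390-6465 and chr1:24616113-24616188, and from chrM:14146-14221 and chr4:80003990-80004065, the copies on chromosomes 1 and 2 being read from the minus strand.
mt-Co1: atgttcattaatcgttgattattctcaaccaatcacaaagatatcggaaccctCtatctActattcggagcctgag
Gm13340: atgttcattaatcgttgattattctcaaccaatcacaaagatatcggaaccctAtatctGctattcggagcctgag
mt-Co1: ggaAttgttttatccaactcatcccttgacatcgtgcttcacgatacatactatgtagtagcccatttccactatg
Gm29216: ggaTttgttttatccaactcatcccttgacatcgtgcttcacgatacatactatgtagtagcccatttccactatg
mt-Cytb: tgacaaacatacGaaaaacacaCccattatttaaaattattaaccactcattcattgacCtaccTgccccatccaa
Gm11410: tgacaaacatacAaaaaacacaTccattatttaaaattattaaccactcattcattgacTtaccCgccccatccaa

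The amount of each gene that differs from every other annotated transcript was expressed as the share of its 76-base windows found in no transcript of another gene. That share was 100% for mt-Cytb (1069 windows), 60.6% for mt-Co1 (891 of 1470), 0.493% for mt-Co2 (3 of 609), 0.495% for mt-Atp6 (3 of 606) and 0.141% for mt-Co3 (1 of 709). For mt-Atp8 it was 100% (129 windows), and the only annotated copy found was that of its last 43 bases in Gm10925, which is shorter than a window. The gap between the chromosome 1 copies of mt-Co2 and mt-Atp6 is 233 bases, the same as on chrM, but its sequence was not compared.

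mt-Co1, the catalytic subunit of the oxidase, had the highest count of all 13 genes in every library. Its level was 10239, 45871 and 21473 CPM in Ground, and 8879, 27220 and 9304 CPM in Space. The means were 25861 ± 18216 CPM (SD, n = 3) in Ground and 15134 ± 10468 CPM (SD, n = 3) in Space. Ground-2 was the highest, followed by Space-2, Ground-3, Ground-1, Space-3 and Space-1, and the groups overlapped.

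mt-Co2, which carries the copper site that takes electrons from cytochrome c, was counted at 462, 1641 and 971 in the Ground libraries and 348, 907 and 433 in the Space libraries. As CPM these were 19.0, 87.3 and 42.5 in Ground and 14.3, 48.3 and 17.3 in Space, with means of 49.6 ± 34.7 and 26.6 ± 18.8 (SD, n = 3 each). The 6 libraries stood in the same order as for mt-Co1. mt-Co3, the remaining core subunit, was counted at 98, 350 and 209 in Ground and 90, 224 and 127 in Space. Its level was 4.03, 18.6 and 9.16 CPM in Ground and 3.70, 11.9 and 5.08 CPM in Space. The order was that of mt-Co1 except that Space-3 lay above Ground-1.

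mt-Cytb had a level close to that of mt-Co1, at 8951, 39203 and 17587 CPM in Ground, and 7145, 22463 and 7912 CPM in Space. The means were 21914 ± 15583 CPM in Ground and 12507 ± 8631 CPM in Space (SD, n = 3 each). The libraries stood in the order of mt-Co1, and the groups overlapped.

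mt-Atp6, the subunit that forms the proton channel with the rotor ring, was counted at 181, 486 and 251 in Ground and 112, 338 and 130 in Space. Its level was 7.45, 25.9 and 11.0 CPM in Ground and 4.61, 18.0 and 5.20 CPM in Space. mt-Atp8, a short subunit next to it, was counted at 4, 25 and 11 in Ground and 2, 11 and 5 in Space, or 0.165, 1.33 and 0.482 CPM and 0.0823, 0.586 and 0.200 CPM. A count of 3 is worth 0.120 to 0.160 CPM in these libraries, so the Space-1 value of mt-Atp8 was under what 3 counts would give. mt-Atp6 had the library order of mt-Co1 and mt-Atp8 that of mt-Co3, and in both ATPase genes the groups overlapped.

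**Figure D1:**
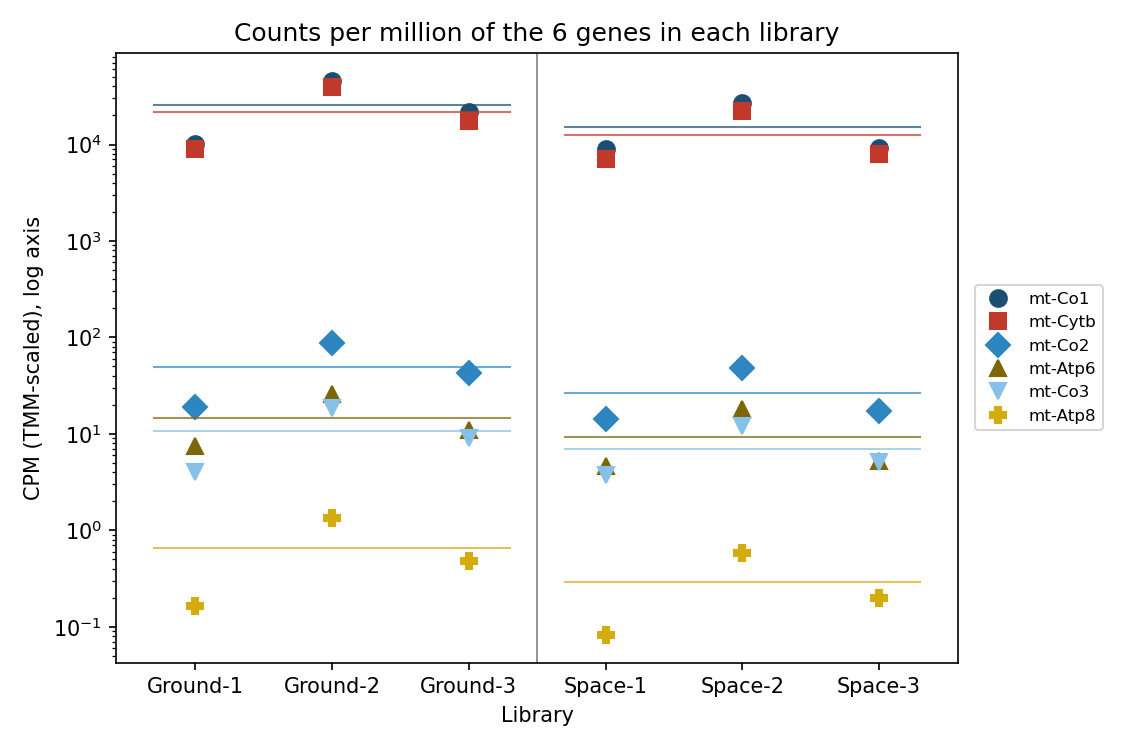
CPM (TMM-scaled, log axis) of the 6 genes in each library, with 1 point per gene and library and horizontal lines at the mean of the 3 libraries of a group. Ground-2 is the highest and Space-1 the lowest library for each gene, and the points of the groups overlap for each gene.

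The range over libraries was alike for mt-Co1 and mt-Cytb, the genes with most counts, and for the far less counted mt-Co2, mt-Co3 and mt-Atp6. The highest library was 5.17 times the lowest for mt-Co1, 5.49 for mt-Cytb, 6.10 for mt-Co2, 5.03 for mt-Co3 and 5.61 for mt-Atp6. No such ratio is given for mt-Atp8, whose lowest library had 2 counts. All 6 genes passed the filter on low counts that 15104 genes passed.

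Per kilobase of gene, the levels fell into separate ranges. The mean over the 6 libraries was 15044 CPM per kilobase for mt-Cytb and 13267 for mt-Co1. It was 55.7 CPM per kilobase for mt-Co2, 17.6 for mt-Atp6, 11.2 for mt-Co3 and 2.32 for mt-Atp8. The mean of mt-Co1 was 238 times that of mt-Co2 and 1188 times that of mt-Co3 on this scale, and all 3 encode subunits of the same core. The lowest library of mt-Co1, at 5747 CPM per kilobase, lay above the highest of mt-Co2, at 127.6. Within the low range, mt-Co2 lay above mt-Atp6 and mt-Atp6 above mt-Co3 in each library, but their ranges over the 6 libraries overlapped, as did those of mt-Cytb and mt-Co1.

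Apart from mt-Nd6, the genes with few counts lay within the span of chrM that is copied on chromosome 1. For mt-Atp8 only the last 43 bases were matched to a copy there. mt-Nd4 and mt-Co1 are also copied there in part, over 876 and 483 bases, and did not have few counts. Of the 13 mitochondrially encoded genes, 7 had a mean under 100 CPM per kilobase. These were mt-Co2, mt-Atp8, mt-Atp6, mt-Co3, mt-Nd3 and mt-Nd4l, which are neighbours on chrM, and mt-Nd6, which lies on the minus strand and had 19.8 CPM per kilobase with 100% of its windows not shared. mt-Nd4, of which 38.5% of windows were not shared, had 3246 CPM per kilobase, mt-Nd2 (94.4%) 3264, mt-Nd5 (98.5%) 2163 and mt-Nd1 (100%) 6297. How the count table dealt with reads that have several placements is not given in the sources used here, and the part of shared sequence in the low counts was not tested. Whether the counts of mt-Co2, mt-Atp6 and mt-Co3 stand in proportion to their messages was not tested either.

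**Figure D2:**
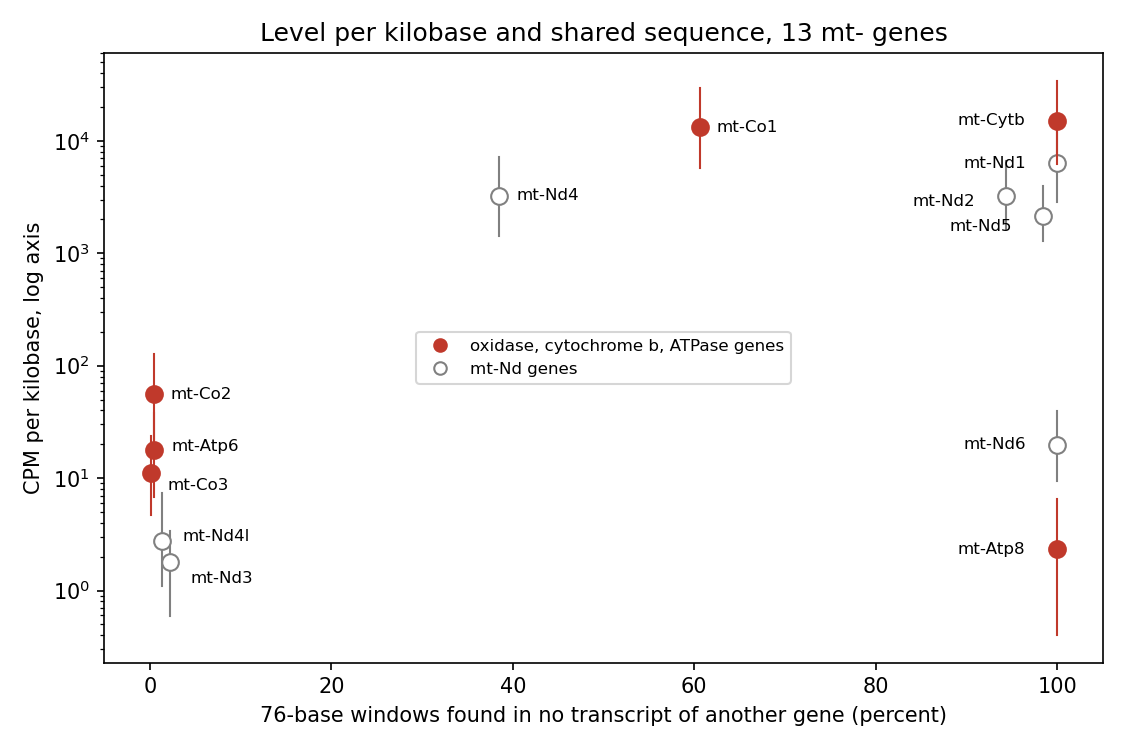
Mean level per kilobase over the 6 libraries (log axis, vertical lines from the lowest to the highest library) against the percent of 76-base windows found in no transcript of another gene, for the 13 mitochondrially encoded genes. mt-Co2, mt-Atp6 and mt-Co3 sit under 1% and under 100 CPM per kilobase, and mt-Co1 and mt-Cytb at 60.6% and 100% with 13267 and 15044 CPM per kilobase. mt-Atp8 and mt-Nd6 are low at 100%. For mt-Atp8 that percent rests on annotated transcripts, and the chromosome 1 sequence between the copies of mt-Co2 and mt-Atp6 was not compared.

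The order of the 2 abundant genes depended on how length was counted. mt-Cytb was above mt-Co1 in every library per kilobase of gene, for example 34268 against 29690 CPM per kilobase in Ground-2 and 6246 against 5747 in Space-1. Per 1000 windows not shared with another transcript, mt-Co1 was above mt-Cytb in every library. The values were 51482 against 36673 CPM in Ground-2 and 9965 against 6684 CPM in Space-1. This measure divides all counts of a gene by its windows not shared. Whether the shared windows of mt-Co1 also gave counts was not tested.

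The 6 genes held 2.00%, 8.04% and 3.85% of all counts in Ground, and 1.62%, 4.91% and 1.80% of them in Space, with 95% Wilson intervals no wider than 8.02% to 8.05%. Intervals and floors cover counting error only. Ground-2 and Space-2, which had the highest shares, also had the lowest total counts of their groups, and the part of depth in this was not tested. Among the counts of the 13 mitochondrially encoded genes the 6 genes held a far steadier share, 64.6%, 69.8% and 67.5% in Ground and 64.5%, 69.0% and 64.0% in Space. That share was highest in Ground-2 and Space-2 and overlapped between the groups.

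Within the mitochondrial counts, mt-Co1 held 34.4% (95% Wilson interval 34.3% to 34.5%) in Ground-1, its lowest library, and 37.7% (37.7% to 37.8%) in Space-2, its highest. The mean share over 3 libraries, with its SD, was 36.4% ± 1.71 for Ground and 36.0% ± 1.62 for Space. mt-Cytb held between 28.7% (28.6% to 28.8%) in Space-1 and 32.1% (32.1% to 32.2%) in Ground-2, with means of 30.9% ± 1.11 and 29.7% ± 1.26. mt-Co2 held 0.0696% ± 0.0051 in Ground and 0.0629% ± 0.0048 in Space, mt-Atp6 0.0217% ± 0.0031 and 0.0209% ± 0.0035, and mt-Co3 0.0149% ± 0.0012 and 0.0168% ± 0.0020. The share of mt-Atp8 was 0.000825% in Ground and 0.000628% in Space. For each of the 6 genes the Ground and Space libraries overlapped in this share, and for mt-Co3 the mean was higher in Space.

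Relative to mt-Co1 itself, mt-Cytb, mt-Co2, mt-Atp6 and mt-Co3 changed less from library to library than their CPM did. For 1000 counts of mt-Co1 there were 874, 855 and 819 counts of mt-Cytb in Ground and 805, 825 and 850 in Space. There were 1.86, 1.90 and 1.98 counts of mt-Co2 in Ground and 1.61, 1.77 and 1.86 in Space. For mt-Atp6 the range was 0.512 to 0.727 and for mt-Co3 it was 0.394 to 0.546. The highest library was 1.09 times the lowest for mt-Cytb, 1.23 for mt-Co2, 1.42 for mt-Atp6 and 1.39 for mt-Co3. mt-Atp8, with 2 to 25 counts a library, ranged from 0.00927 to 0.0290. mt-Nd5, which encodes a complex I subunit, varied more, from 157 to 286 per 1000 counts of mt-Co1, a ratio of 1.82. These mt-Nd5 ratios were low in Ground-2, Ground-3 and Space-2, the 3 libraries in which mt-Co1, their denominator, was high. By CPM mt-Nd5 was itself highest there, at 7199, 3949 and 4693, against 2367 to 2796 in the other libraries.

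The fitted log2 fold change of Space relative to Ground, with its SE, was -0.77 ± 0.60 for mt-Co1, -0.90 ± 0.61 for mt-Co2 and -0.62 ± 0.59 for mt-Co3. It was -0.81 ± 0.60 for mt-Cytb, -0.68 ± 0.62 for mt-Atp6 and -1.20 ± 0.87 for mt-Atp8. The median of the 6 was -0.79, beside a median of -0.0020 over all 15104 genes tested. These values chose the genes, and no test was made on them. The group means were apart by less than the SD over the 3 libraries of Ground for each gene. No gene of the 6 had its 3 Space libraries all below its 3 Ground libraries, which 1.98% of all genes tested had.

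The size of the difference rested on single libraries. Without Ground-2 the median of the 6 fold changes was -0.08, with mt-Co1 at -0.07 and mt-Co3 at 0.055, above 0. Without Space-2 the median was -1.56 and without Ground-1 it was -1.17. Without Space-1 it was -0.52, without Space-3 -0.54 and without Ground-3 -0.91. Thus Ground-2 and Space-2, the libraries in which the genes were highest, moved the fold change in opposite directions.

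**Figure D3:**
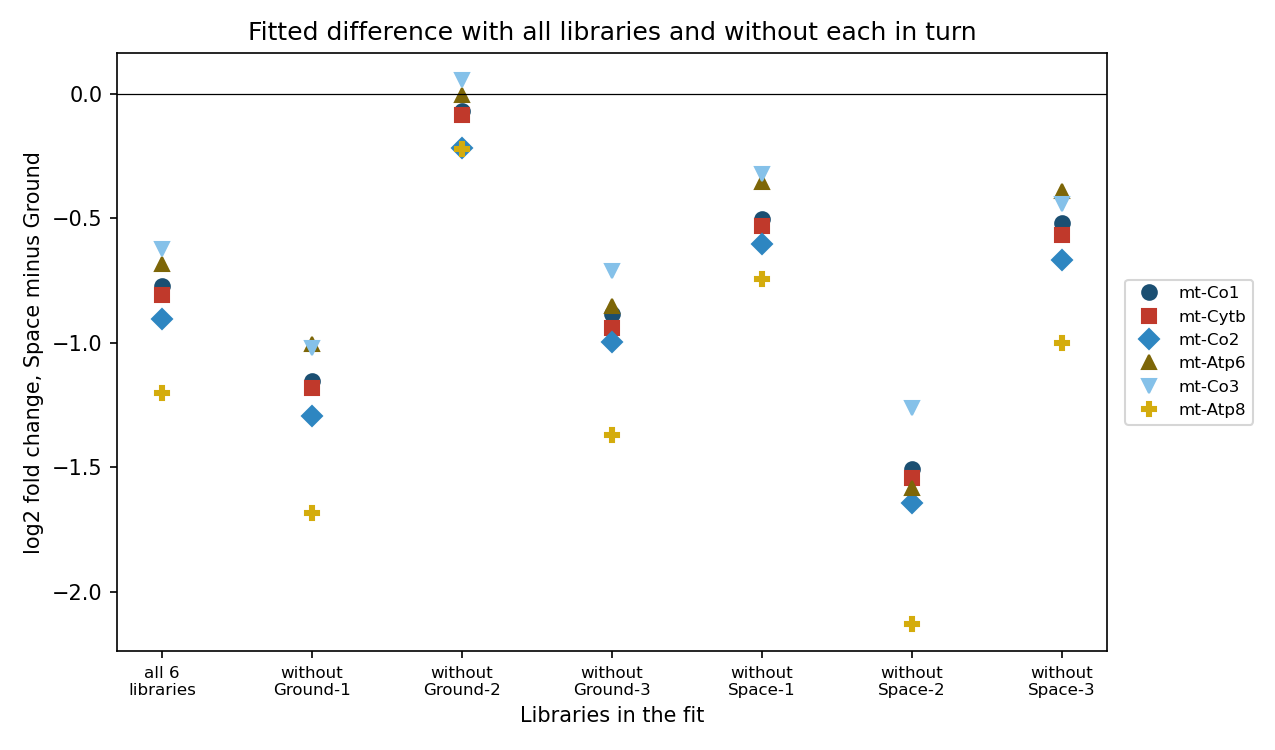
Fitted log2 fold change of Space relative to Ground for the 6 genes with all 6 libraries and without each library in turn, 1 point per gene. The points gather near 0 without Ground-2, where mt-Co3 is at 0.055, and lie lowest without Space-2.

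The mitochondrially encoded genes that were not chosen were the 7 subunits of complex I, the NADH dehydrogenase that opens the respiratory chain. They followed the same libraries, with a summed level of 10544, 36812 and 18800 CPM in Ground and 8834, 22370 and 9701 CPM in Space. The highest library was 4.17 times the lowest. In edgeR's quasi-likelihood test across all genes, 0 of the 7 passed an adjusted p of 0.05 in either direction, where 0% of all genes tested did, the lowest adjusted p being 0.9999. Over all 15104 genes 92 had an unadjusted p under 0.05, 0 of them among the 7, and DESeq2 and limma-voom also called 0 genes. All 7 fold changes were below 0, beside 51.3% of all genes tested, with a median of -0.74 and a range of -1.15 to -0.39. Since the 7 genes followed the same libraries as the chosen genes, this shared direction is not a separate observation. mt-Nd6, the only coding gene on the minus strand, was 1 of the 13 mitochondrially encoded genes whose share of the mitochondrial counts was compared. It alone had no overlap between the groups, at 0.0151% to 0.0184% in Ground and 0.0197% to 0.0224% in Space. Some of its 95% Wilson intervals overlapped between the groups, for example 0.0155% to 0.0218% in Ground-1 and 0.0164% to 0.0235% in Space-1. Others did not, for example 0.0154% to 0.0187% in Ground-2 and 0.0201% to 0.0251% in Space-2. The separation was not tested.

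Because Ground-1 resembled Space-3, a fit was also made with libraries matched across the groups. Deviations from the group means correlated at 0.64 for Ground-1 with Space-3, 0.67 for Ground-3 with Space-1 and 0.33 for Ground-2 with Space-2, the 3 pairs used. By chi-square per gene, however, Ground-3 was closer to Space-2 (13.4) than to Space-1 (23.6). Space-2 was closer to Ground-3 than to Ground-2 (16.7). The pairing used comes from the values and not from the labels, so its p-values take as given a choice made on the same counts. There, 4 of the 7 complex I genes, mt-Nd1, mt-Nd2, mt-Nd4 and mt-Nd5, passed an adjusted p of 0.05 in edgeR's quasi-likelihood test. All 4 were lower in Space, where 0.238% of all genes tested passed as lower and 0.0132% as higher. They followed the libraries of the chosen genes, so this is not a separate observation. Within these matched libraries the log2 ratio of Space to Ground for mt-Co1 was -0.14 for Ground-1 and Space-3, -0.75 for Ground-2 and Space-2 and -1.27 for Ground-3 and Space-1. For mt-Cytb the same ratios were -0.18, -0.80 and -1.30, and for mt-Co3 they were 0.33, -0.64 and -1.29. Of these pairs, Ground-1 and Space-3, the closest by chi-square, differed least in mt-Co1 and mt-Cytb. The chi-square includes the counts of these genes, so this is not a separate observation.

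The nuclear subunits of the same complexes did not share this profile. Complex IV is completed by nuclear subunits that surround the mitochondrially encoded core, and 15 of the 16 listed passed the filter on low counts. Their summed level was 1584, 1621 and 1729 CPM in Ground and 1674, 1587 and 1581 CPM in Space, and the highest library was 1.09 times the lowest. In edgeR's test 0 of the 15 passed an adjusted p of 0.05, and in this and the other nuclear lists of mitochondrial genes named below 0 genes had an unadjusted p under 0.05. DESeq2 and limma-voom called 0 genes of these lists. Their median log2 fold change was -0.04. Cox4i2, an alternative form of subunit IV, had the smallest p of the list and was the only one of the 15 with no overlap (1.98% of all genes tested were lower in this way), at 0.617, 0.745 and 0.657 CPM in Ground and 0.411, 0.586 and 0.480 CPM in Space (log2 fold change -0.45 ± 0.33, SE). Cox7c, a small membrane subunit, had a log2 fold change of 0.08 ± 0.07, and Cox6a1, the highest of the list at 295 CPM per kilobase, had -0.04 ± 0.07.

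For complex III, all 9 nuclear subunits were tested, and 0 passed. Their summed level lay between 901 and 1027 CPM, the highest library being 1.14 times the lowest, and the median log2 fold change was -0.0026. Uqcr10 and Uqcr11, small subunits of the complex, had the smallest p, with log2 fold changes of -0.13 ± 0.08 and -0.08 ± 0.06 (SE), and Uqcr11 was also the highest per kilobase at 152 CPM. For complex V, 0 of 16 nuclear subunits passed, and their summed level was 3213, 3274 and 3722 CPM in Ground and 3697, 3226 and 3214 CPM in Space. The high libraries here were Ground-3 and Space-1, of which Space-1 was the lowest for all 6 mitochondrially encoded genes. Atp5b, the catalytic beta subunit and the highest of the list at 262 CPM per kilobase, was at 1242 CPM in Ground-3 and 1264 CPM in Space-1 and between 1023 and 1053 CPM elsewhere. Atp5o, the stalk subunit that confers oligomycin sensitivity, and Atp5l, a membrane subunit, had log2 fold changes of -0.07 ± 0.07 and -0.06 ± 0.08.

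**Figure D4:**
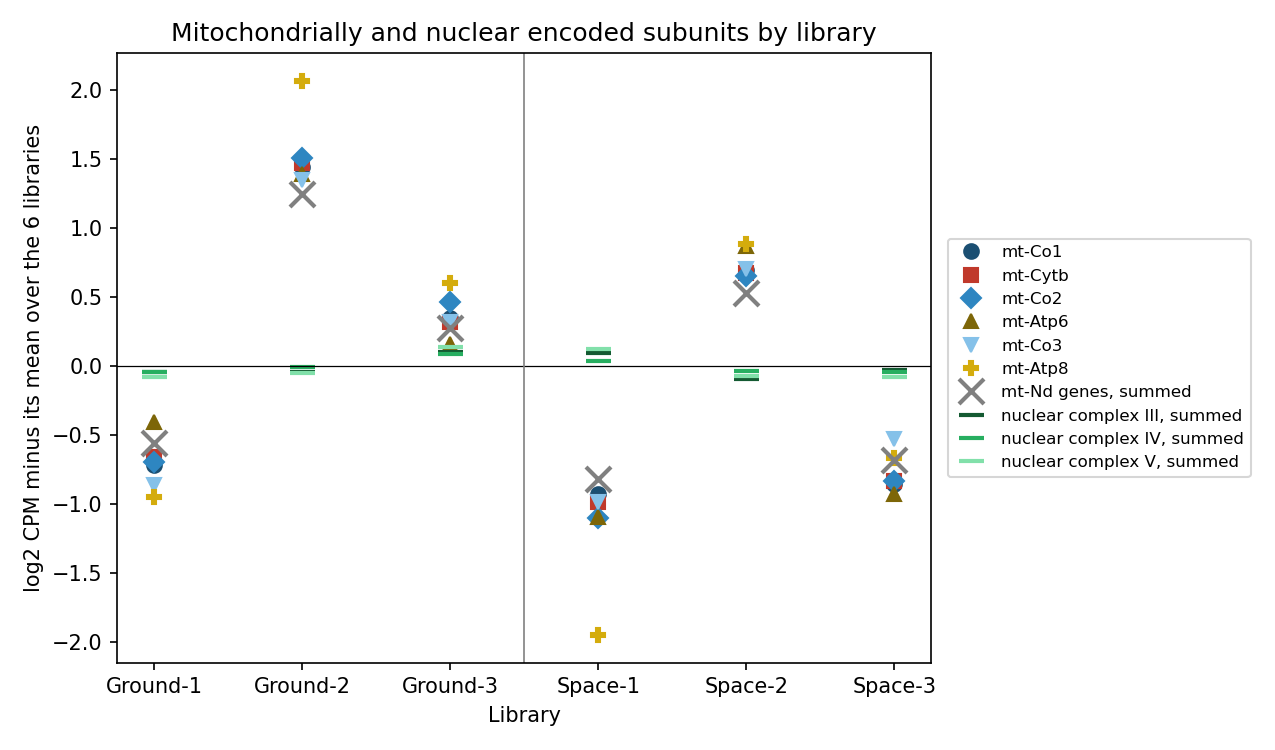
log2 CPM minus its mean over the 6 libraries, for each of the 6 genes, for the summed complex I genes of the mitochondrial genome and for the summed nuclear subunits of complexes III, IV and V. The mitochondrially encoded genes rise and fall together, highest in Ground-2 and lowest in Space-1, and the nuclear sums stay near 0 in all 6 libraries.

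Genes that build these complexes or express the mitochondrial genome were also nearly level across libraries. Of 27 assembly factors tested, 0 passed in edgeR's test, and the summed level varied by a ratio of 1.07. Cox15, which makes the heme A of the oxidase, was the only one of the 27 with no overlap (1.98% of all genes tested were lower in this way), at 33.3, 33.7 and 33.2 CPM in Ground and 30.2, 30.2 and 30.7 CPM in Space (log2 fold change -0.14 ± 0.07, SE). Coa3, which acts early in the assembly of the oxidase core, had a log2 fold change of -0.15 ± 0.13, and Uqcc2, a factor for cytochrome b, was the highest of the list at 93.1 CPM per kilobase. Of 29 genes of mitochondrial transcription and RNA processing, 0 passed, with a median log2 fold change of 0.01. Polrmt, the mitochondrial RNA polymerase, lay between 80.5 and 91.0 CPM in the 6 libraries with a log2 fold change of -0.07 ± 0.06. Fastkd1, of a family of mitochondrial RNA-binding proteins, had 0.11 ± 0.09, and Elac2, which cuts the 3′ ends of tRNAs, was the highest at 54.4 CPM per kilobase. Of 14 membrane and matrix proteins 0 passed, with a ratio of 1.15 between the highest and the lowest summed level. Vdac2, an outer membrane channel, had a log2 fold change of 0.07 ± 0.09, Tomm40, the import pore, had 0.04 ± 0.06, and Hspd1, a matrix chaperone, was the highest at 167.5 CPM per kilobase.

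Among the fibroblast markers, 13 of 15 had a log2 fold change below 0, beside 51.3% of all genes tested, with a median of -0.28. For 3 of 15 (Col1a2, Loxl1 and Thbs1) all Space libraries lay below all Ground libraries, as for 1.98% of all genes tested. In edgeR's test 0 of the 15 passed, where 0% of all genes did. An unadjusted p under 0.05 was found for 4 of the 15, beside 92 of all 15104 genes. With the libraries matched across the groups 4 passed, Col1a2, Col3a1, Dcn and Thbs1, all lower in Space, where 0.238% of all genes tested were lower. By summed fibroblast level Space-1 was the lowest library at 934 CPM and Space-2 the highest at 1139 CPM. For each of the 6 mitochondrially encoded genes Space-1 was the lowest and Ground-2 the highest. Single fibroblast markers could rank the libraries otherwise, such as Col1a2, highest in Ground-1 at 33.8 CPM and at 25.9 CPM in Space-2. The part of feeder cells in the mitochondrial values was not tested. Other somatic cells were scarce by their markers. The 8 Sertoli and Leydig cell markers summed to 29.3 to 32.2 CPM, with Hsd3b1 at 0 in all libraries, and the 7 macrophage markers to 14.9 to 24.4 CPM, most of it Cd68.

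The genes whose pattern over the 6 libraries was closest to the mean of the 6 genes were mitochondrially encoded. Closeness was measured as the root mean square difference of log2 CPM, centred on the 6 libraries, from the mean profile of the 6 genes, which was -0.68, 1.47 and 0.33 in Ground and -1.07, 0.70 and -0.76 in Space. It was 0.050 for mt-Cytb, 0.067 for mt-Co2 and 0.074 for mt-Co1, which are part of that mean, and 0.082 for mt-Nd4 and 0.10 for mt-Nd1, which are not. The nearest nuclear genes were Fgf7, a growth factor of mesenchymal cells, at 0.29, Atp2c2, a Golgi calcium pump, at 0.33, Ccn4, a secreted matrix protein, at 0.33, Cdc42ep5, a Cdc42 effector, at 0.43 and Irx1, a homeobox factor, at 0.44. These 5 nuclear genes had only 80 to 114 counts in all 6 libraries together, and the median over nuclear genes was 0.92. Not every mitochondrially encoded gene was nearer than they were. The value was 0.36 for mt-Nd5, above those of Fgf7, Atp2c2 and Ccn4, and 0.48 for mt-Nd3, above those of all 5.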

How the data were processed

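RNA from 6 libraries of GS cells, 3 titled Space and 3 titled Ground, was analysed. The file the authors deposited holds raw counts, 1 column a library. Its reads had been trimmed (cutadapt) and then placed on mm10 by HISAT2 with GENCODE M21, as the study's methods state. Of the gene identifiers counted, 32235 are in GENCODE M21 and 50 are not. The submitters' processing notes list bcl2fastq 2.20, cutadapt 4.1, HISAT2 2.2.1 and HTSeq 2.0.2. Settings for strand, overlapping genes and reads with several placements are not given in the sources used here. Kit, sequencer and layout differ between the labels, which give paired reads, and the methods, which give single reads of 76 bases. Ribosomal and transfer RNA genes of the mitochondrion were not rows of the table.

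Counts were tested in edgeR 4.0.16 (R 4.3.3) after filterByExpr and TMM scaling, with the 2-sided quasi-likelihood test of group alone and Benjamini-Hochberg adjustment at 0.05. CPM used TMM-scaled library sizes, and centred log2 CPM a prior count of 2. Alternatives were RLE or no scaling, scaling without mitochondrial genes, other filters, DESeq2 1.42.0, limma-voom (limma 3.58.1), replicate blocks and each library left out. Shares carry 95% Wilson intervals, and a floor is 3 counts. The fits were tested on simulated counts.

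Windows were compared with all GENCODE M21 transcripts, because no genome sequence was used here, and near copies were found with blastn 2.17.0. Unannotated copies are therefore missed, and sequences are those of GENCODE M21 transcripts.

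The members and gene lists were chosen with earlier results of these data known. Besides the 6 genes and the mt-Nd genes, each nuclear list names its 2 genes with the smallest p and its highest per kilobase, and the 5 nuclear genes nearest in profile are named.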

Additional observations from a re-analysis of the deposited data

How the results depend on the processing

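The median log2 fold change of the 6 genes was below 0 in all 18 alternatives (RLE, no scaling, scaling without mitochondrial genes, 2 other filters, DESeq2, limma-voom, replicate blocks and libraries left out). In the fit without Ground-2 and Space-2 below it is over 5 genes, since mt-Atp8 did not pass the filter there. It ranged from -1.56 without Space-2 to -0.08 without Ground-2 when single libraries were left out. mt-Co3 ranged from -1.26 without Space-2 to 0.055 without Ground-2, the only change of sign. The count of genes that differed was 0 in edgeR and 0 in 14 of 18 alternatives. Same-numbered libraries deviated from their group means with correlations of -0.54, 0.33 and -0.61, and the replicate block of the title numbers gave 0 genes. The means are of 3 libraries each, so these correlations cannot show whether libraries were handled as pairs. With the crossed pairs (Ground-1 and Space-3, Ground-3 and Space-1, both numbers 2) as the replicate block 38 genes differed, 4 of them among the listed pathway genes. Without Ground-1 and Space-3 it gave 174 genes and 5 pathway genes, without Ground-2 and Space-2 76 and 4, and without Ground-3 and Space-1 16 and 4. The cause was not tested. The share of windows not shared, over the 6 genes together, was 45.6% at 76 bases, 41.8% at 50 bases and 51.2% at 150 bases.

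Mitochondrial counts differed several-fold between libraries of one group, and the SE of each of the 6 fold changes reflects that spread. mt-Atp8 rests on 2 to 25 counts a library.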
